A study of Sus scrofa with 4 samples.

Results

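The genes described are 8 adrenoceptor genes, ADRA1A, ADRA1B, ADRA1D, ADRA2A, ADRA2B, ADRA2C, ADRB1 and ADRB3, found by symbol among 29837 named genes of a count table. Adrenoceptor genes outside these 8 were not analysed here. The table covers pig skin cells sorted by a reporter of LGR5, an R-spondin receptor that amplifies WNT signalling and marks hair follicle stem cells. Each of 2 pigs, 88R and 95R, gave 1 library of GFP-high cells (LGR5-high) and 1 of GFP-negative cells (LGR5-negative), which makes 4 poly(A) RNA-seq libraries. Both populations came from the same knock-in animals, in which an H2B-GFP cassette occupies exon 1 of one LGR5 allele. The line was founded from clonal fetal fibroblasts edited with CRISPR, by somatic cell nuclear transfer. LGR5-negative cells thus carried the cassette as well, and no library came from an unedited pig. The epidermis with its hair was separated enzymatically before sorting. The 8 genes were chosen by their counts in these LGR5-high and LGR5-negative libraries, with ADRA2A as the leading gene, so their levels are given as a description without a test.

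Adrenoceptors are G protein-coupled receptors for adrenaline and noradrenaline. The alpha-2 receptors (ADRA2A, ADRA2B, ADRA2C) couple to Gi/o, which lowers cAMP, the alpha-1 receptors (ADRA1A, ADRA1B, ADRA1D) couple to Gq and phospholipase C, and the beta receptors (here ADRB1 and ADRB3) couple to Gs, which raises cAMP. In skin, sympathetic nerves release noradrenaline at blood vessels, at the arrector pili muscle and near the hair follicle bulge, where that muscle attaches.

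The libraries held 30696803 to 32463362 counts on named genes. A level of 3 counts, the limit that a count of 0 allows, stood at 0.0872 to 0.105 CPM (the count relative to library size after TMM scaling, which adjusts for differences in library composition). Counting intervals and these limits cover counting error only. LGR5 itself had 4551 and 6224 counts in LGR5-high (88R and 95R) and 36 and 109 in LGR5-negative. Transcript lengths were not used here, so levels are compared between populations and not between genes. In bulk libraries such as these, fewer cells of a type and less RNA per cell cannot be told apart.

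ADRA2A, whose product is the Gi-coupled receptor that also serves as an autoreceptor on sympathetic nerve endings, was read in every library. It had 9354 counts in LGR5-high of 88R and 7817 in LGR5-high of 95R. In LGR5-negative it had 31 and 32 counts in the same pigs. The populations were far apart, and the 2 pigs differed little within each. Its level averaged 254 ± 25.1 CPM in LGR5-high cells, against 1.07 ± 0.0204 CPM in the negative cells (mean ± SD, n = 2 pigs). The fold was 250 in 88R (95% counting interval 176 to 368) and 223 in 95R (158 to 327). Among 15181 tested genes with more than 3 counts in every library, ADRA2A had the highest fitted log2 fold change, 7.88 (rank 1). Among all 15980 tested genes, which include those at or under 3 counts in a library, ADRA2A ranked 27. Both ranks rest on the counts by which it was chosen. The low counts in LGR5-negative were above the 3-count limit. As a share of the LGR5-high level, the LGR5-negative level of ADRA2A was 0.400% in 88R and 0.448% in 95R. For LGR5, on whose reporter the cells were sorted, the same share was 0.954% and 1.91%.

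ADRA2C, the alpha-2 subtype known from nerve terminals and vessels, was read almost only in LGR5-high. It had 53 and 214 counts there (88R and 95R) and 0 and 1 in LGR5-negative. The 2 LGR5-high libraries differed by a larger margin than for ADRA2A, at 1.54 and 6.47 CPM (4.01 ± 3.49, SD, n = 2). In 88R the LGR5-high level was 14.6 times that of 3 counts in the LGR5-negative library. The 95% counting interval of the fold in 88R began at 11.5. In 95R, with 1 count on the low side, the ratio was 196 (95% counting interval 34.8 to 7768). Over both pigs it was 233 (41.4 to 9219).

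ADRA2B, the remaining alpha-2 subtype, stayed near the limit in both populations. It had 9 and 11 counts in LGR5-high and 3 and 9 in LGR5-negative (88R and 95R), and the pooled ratio was 1.45 (95% counting interval 0.676 to 3.26). The populations overlapped, since LGR5-negative of 95R (0.298 CPM) lay above LGR5-high of 88R (0.262 CPM). A difference was not detectable at this depth.

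ADRA1B, a Gq-coupled receptor of smooth muscle and liver among other tissues, was read in LGR5-high and not in LGR5-negative. It had 41 and 69 counts in LGR5-high and 0 in both LGR5-negative libraries. The LGR5-high level was 1.64 ± 0.633 CPM (SD, n = 2). It was 11.3 times the 3-count limit of LGR5-negative in 88R and 21.0 times in 95R. The 95% counting intervals of the fold over LGR5-negative began at 8.81 and 16.7. The ADRA1B gene overlaps 4 annotated genes in the RefSeq table (LOC110257291, LOC106506544, LOC106506543 and LOC110257290). Of these, LOC106506544 had 5 counts and LOC106506543 had 2, all in LGR5-high of 95R, and the other two had 0 counts in every library. The strand setting of the counting is not given in the sources used here, so reads of overlapping genes cannot be told apart.

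The other alpha-1 receptors were low. ADRA1D, known from large arteries, had 7 and 3 counts in LGR5-high and 8 and 2 in LGR5-negative (88R and 95R). Both ADRA1D libraries of 88R exceeded both of 95R, and the pooled ratio was 0.871 (95% counting interval 0.325 to 2.33). ADRA1A, the subtype typical of urethral and prostatic smooth muscle, had 1 and 2 counts in LGR5-high and 5 and 4 in LGR5-negative. Its pooled ratio of 0.290 had a 95% counting interval of 0.0506 to 1.16, so the order of the populations was not resolved at this depth.

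Among the beta receptors, ADRB1, the main subtype of the heart, had 2 and 1 counts in LGR5-high and 0 in LGR5-negative. ADRB3, known from brown and white fat, had 0 counts in all 4 libraries, which allows a level of up to 0.0872 to 0.105 CPM. Neither gene can be ranked between the populations. The adipocyte marker ADIPOQ also had 0 counts in every library, but other genes of that list were read. FABP4 had 24 and 23 counts in LGR5-high and 14 and 18 in LGR5-negative. CIDEC had 1 and 6 against 7 and 15. The part of fat cells in these levels was not tested.

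Across the set, 6 of 8 genes exceeded 3 counts in at least 1 library, beside 64.3% of all named genes. ADRA2A did so in 4 libraries (52.2% of all named genes did) and ADRA2B in 3. ADRA1B and ADRA2C exceeded 3 counts in both LGR5-high libraries and stayed at or under it in both LGR5-negative ones, a pattern of 2.51% of all named genes. ADRA1A had the reverse pattern, held by 0.794%. The members just inside the 3-count limit were ADRA1A with 4 and 5 counts in LGR5-negative, and those just outside were ADRA1D and ADRA2B with 3 counts in 1 library each. The filter on low counts was passed by 3 of 8 members, ADRA2A, ADRA2C and ADRA1B, beside 53.6% of all named genes. ADRA2C and ADRA1B passed only through LGR5-high and therefore had to differ. ADRA2A took 98.8% of the reads on the 8 genes in LGR5-high of 88R (95% exact Clopper-Pearson interval 98.6 to 99.0) and 96.3% in 95R (95.9 to 96.7). In LGR5-negative it took 66.0% of 47 reads and 66.7% of 48, with intervals of 50.7 to 79.1 and 51.6 to 79.6. These are shares of reads and were not corrected for transcript length.

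**Figure D1:**
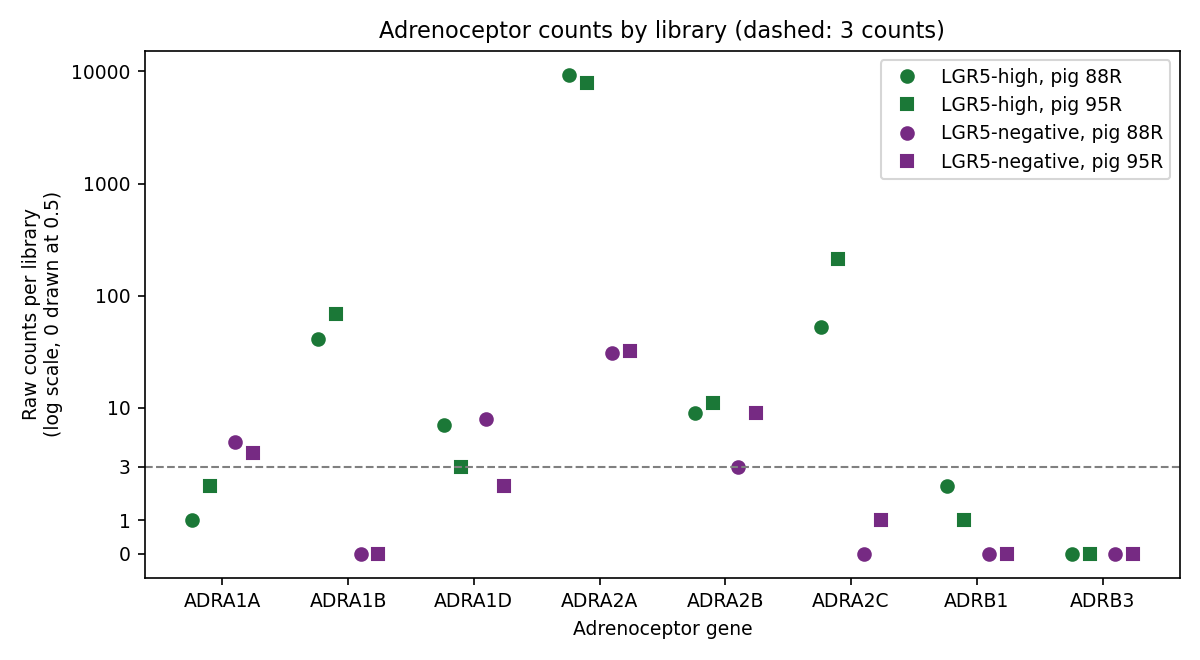
Counts of the 8 adrenoceptor genes in each library, with 1 symbol per library (color for the population, shape for the pig), on a log axis with 0 drawn at its foot and a dashed line at 3 counts. ADRA2A stands at 9354 and 7817 counts in LGR5-high and at 31 and 32 in LGR5-negative, while ADRB3 is at 0 throughout.

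The genes with the profile most like ADRA2A were sought by the Euclidean distance of log2 CPM, each gene centred on its own mean over the 4 libraries. The search covered tested genes other than those with a LOC identifier as symbol. The 5 nearest were CAPN6 (distance 0.326), FGF5 (0.503), CLSTN3 (0.638), GJB6 (0.675) and FOXE1 (0.686). FGF5, a growth factor that ends the growth phase of the hair cycle, had 653 and 659 counts in LGR5-high and 0 in LGR5-negative. GJB6, the gap junction protein connexin 30, had 18547 and 17066 counts in LGR5-high and 93 and 49 in LGR5-negative. FOXE1, a forkhead transcription factor of the hair follicle outer root sheath, had 2758 and 2617 counts against 16 and 9. CLSTN3, a cadherin-like calsyntenin, had 5875 and 4621 counts against 25 and 33. CAPN6, a calpain-like protein, had 411 and 461 counts against 0 in both, so its distance, like that of FGF5, depends on the prior count.

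**Figure D2:**
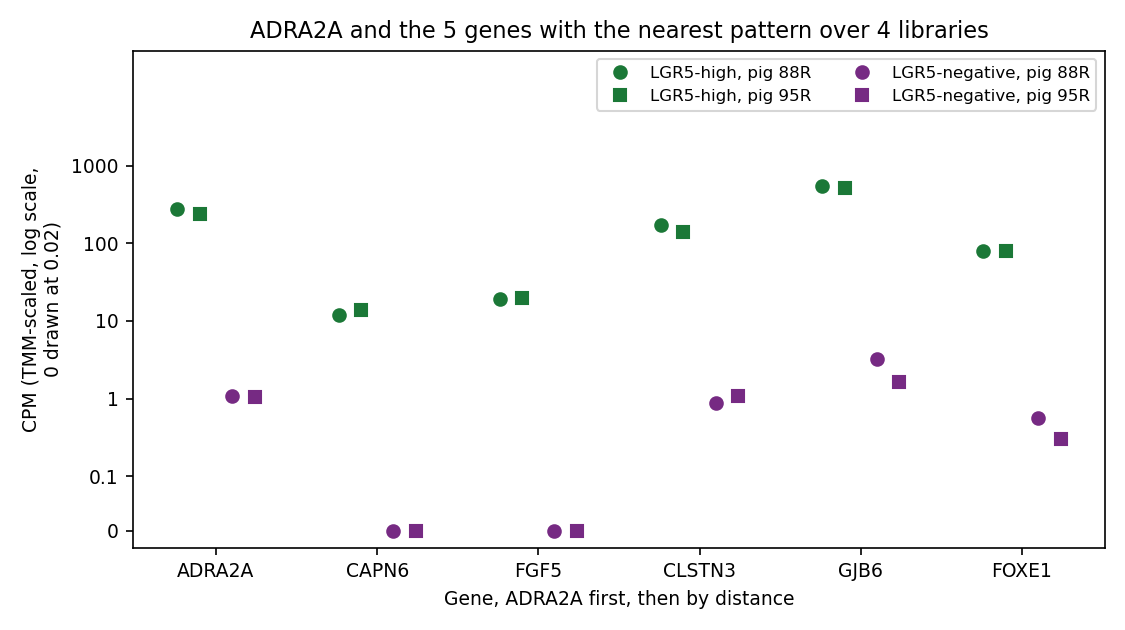
Levels of ADRA2A and its 5 nearest genes (LOC identifiers left out) by library, in CPM on a log axis with 0 drawn at its foot. Each gene is high in both LGR5-high libraries and low in both LGR5-negative ones. CAPN6 and FGF5 have 0 counts in LGR5-negative.

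Neighbours were taken in the RefSeq gene order from protein-coding genes that were among the named genes, so other genes can lie closer. The genes beside ADRA2A, chosen for description after values were seen, did not share its size of difference. SHOC2, a RAS pathway scaffold on one side of it, had log2 fold change 0.66 ± 0.0838 (SE, edgeR, adjusted p = 0.00203). GPAM, the acyltransferase that starts triglyceride synthesis, lies on the other side and had 1.13 ± 0.116 (adjusted p = 0.000940 by edgeR). BBIP1 was not called (-0.17 ± 0.109), and FAHD1 had 0 counts. Beside ADRA2C, LOC106504574 had 13 and 40 counts in LGR5-high and 0 and 1 in LGR5-negative, and HMX1 had 0 counts. LRPAP1 and CPZ were not called by edgeR (adjusted p = 0.0992 and 0.184), and with a replicate block for pig LRPAP1 was called higher (adjusted p = 0.0479) and CPZ lower (adjusted p = 0.0106).

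The wider pathway was counted over 137 genes in 12 lists, of which 108 passed the filter and were tested. Higher in LGR5-high were 28 genes and lower were 31, by edgeR's quasi-likelihood test at adjusted p under 0.05. Among all tested genes 44.7% were called, 22.7% higher and 22% lower, and among the pathway genes 54.6% were called. The median log2 fold change was 0.13 in the pathway genes beside 0.02 over all tested genes. The split by direction depends on the scaling. With library size alone, which raised the median of all genes to 0.24, it was 41 higher and 25 lower, and with upper quartile scaling 38 and 29.

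Receptor ligand supply comes first. Of the catecholamine synthesis and storage genes, 7 were tested, 1 was higher and 1 lower. GCH1, which makes the cofactor of tyrosine hydroxylase, fell by 2.54 on the log2 scale (5.10 against 29.6 CPM, adjusted p = 0.000124 by edgeR). SPR, of the same cofactor pathway, had log2 fold change 0.62. Named after their values were seen, TH, the first enzyme of catecholamine synthesis, had 0 counts in every library, and DBH, which makes noradrenaline, had 29 and 16 counts in LGR5-high and 11 and 4 in LGR5-negative. It was not called by edgeR, and with a replicate block for pig it was called higher (adjusted p = 0.0363). Under that block the list had 4 genes higher and 1 lower.

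Of 8 tested genes of catecholamine uptake and breakdown, 3 were higher and 4 lower. The low-affinity transporter SLC22A2 had 18 and 24 counts in LGR5-high and 0 in LGR5-negative, at least 6.11-fold higher over the group means against the 3-count limit. SLC29A4, a monoamine transporter, had log2 fold change 2.11 ± 0.510 (SE, adjusted p = 0.0199 by edgeR) and lost its call without either LGR5-high library. MAOA, the oxidase that degrades noradrenaline, stood at 6.28 ± 0.743 CPM against 1.46 ± 0.180 (SD, n = 2; log2 fold change 2.10, edgeR adjusted p = 0.00144). The genes that were lower included the noradrenaline transporter SLC6A2, with 276 and 103 counts in LGR5-high and 1179 and 352 in LGR5-negative. The pigs differed widely within each population, while the log2 fold change within a pig was -2.36 in 88R and -1.88 in 95R. With a replicate block for pig SLC6A2 was called lower as well (edgeR adjusted p = 2.01e-09). Without the block, the log2 fold change was -2.25 ± 0.690 with adjusted p = 0.0431 by edgeR. That call was lost with library size alone, with DESeq2 and with limma-voom. It was also lost without LGR5-high of 88R, LGR5-negative of 88R or LGR5-high of 95R. The dopamine transporter SLC6A3 was at -2.11 and lost its call with DESeq2 and without each of the same 3 libraries. RNLS, named for the flavoprotein renalase, was lower as well, with 264 and 199 counts in LGR5-high and 383 and 308 in LGR5-negative.

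At the level of the G proteins, 1 of 11 alpha subunits was higher and 3 were lower. The Gi subunit GNAI1, a partner of ADRA2A, was lower in LGR5-high, at 94.4 ± 10.8 CPM against 154 ± 1.94 (log2 fold change -0.71, edgeR adjusted p = 0.00304). The Gi subunits GNAI2 and GNAI3 were not called, at -0.10 ± 0.0742 and 0.15 ± 0.0767. GNA14, a Gq family subunit, was higher (1.61 ± 0.291, adjusted p = 0.00730 by edgeR). Its relatives GNA11 and GNA15 were lower by 0.45 and 0.68. The call of GNA11 was lost under upper quartile scaling and library size alone, and without LGR5-negative of 88R or LGR5-high of 95R, and that of GNA14 without LGR5-high of 95R. The Gs subunit GNAS was not called (0.26 ± 0.101, edgeR adjusted p = 0.0807), and with the pig as a replicate block it was called (adjusted p = 0.0249). The block gave 4 higher and 3 lower alpha subunits.

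Of 13 tested beta and gamma subunits, 3 were higher and 4 lower. GNG2 had log2 fold change 2.19 ± 0.196 (adjusted p = 0.000594 by edgeR) and GNB5, the partner of R7 RGS proteins, 1.83. GNG4 had 16 and 16 counts in LGR5-high and 0 and 1 in LGR5-negative, a ratio of 27.9 with a counting interval of 4.66 to 1135, and was not called when either LGR5-high library was left out. The lower genes were led by GNG11 (-3.01), GNB4 (-1.70) and GNG12 (-0.49), whose call was lost with library size alone and without either LGR5-high library or LGR5-negative of 95R. Of the channels these subunits act on, 2 were tested. CACNA1A, the pore of P/Q-type calcium channels, had 3614 and 3771 counts in LGR5-high and 21 and 26 in LGR5-negative (log2 fold change 7.09 ± 0.140). KCNJ3, a subunit of Gi-gated potassium channels, was lower, at 0.831 ± 0.0653 CPM against 11.4 ± 2.68 (-3.78 ± 0.268, adjusted p = 0.000283 by edgeR).

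The cAMP enzymes moved in both directions. Of 6 adenylyl cyclases tested, ADCY7 was higher and ADCY6 and ADCY3 were lower. ADCY7 had 2239 and 2028 counts in LGR5-high and 199 and 276 in LGR5-negative, or 63.2 ± 2.64 CPM against 8.05 ± 1.52 (log2 fold change 2.97 ± 0.154, edgeR adjusted p = 0.000119). ADCY6, a cyclase that Gi inhibits, fell by 1.32 on the log2 scale (76.5 ± 1.80 against 191 ± 15.9 CPM, adjusted p = 0.000255 by edgeR). ADCY3 fell by 0.85. Among 10 cAMP phosphodiesterases, PDE7B was higher (3.08 ± 0.356, edgeR adjusted p = 0.00141) while PDE8A (-0.99) and PDE4B (-0.91) were lower. With the block, 2 phosphodiesterases were higher and 3 lower.

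Protein kinase A, the main cAMP effector, was the list with the most genes higher, 6 of 9 tested, with 1 lower. PRKAR2B, a regulatory subunit, had 416 and 210 counts in LGR5-high and 29 and 34 in LGR5-negative (log2 fold change 3.10 ± 0.379, edgeR adjusted p = 0.00176). PRKAR1B (2.22) and the kinase inhibitor PKIA (1.86) followed. A second inhibitor, PKIB, was lower (-2.51 ± 0.231, adjusted p = 0.000653 by edgeR). The list thus held regulatory subunits and inhibitors among the genes with the greatest differences. The catalytic subunits PRKACA (0.46) and PRKACB (0.38) and the regulatory subunit PRKAR1A (0.30) were also called higher, by less. Of 12 cAMP response factors 2 were higher and 4 lower. CREB5, a bZIP factor of the CREB family, stood at 203 ± 20.7 CPM against 33.5 ± 5.88 (2.60 ± 0.149, adjusted p = 0.000160 by edgeR). The cAMP-activated exchange factors RAPGEF3 and RAPGEF4 were lower, at -2.79 and -2.56, with 17.8 ± 4.80 against 123 ± 16.3 CPM for RAPGEF3. CRTC1, a CREB coactivator, was higher by 0.41, and its call was lost with DESeq2, without the filter on low counts and without any one of the 4 libraries. Its relative CRTC3 was lower by 0.56 on the log2 scale, a call lost with library size alone and without LGR5-high of 95R.

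On the Gq branch, to which ADRA1B couples, 4 of 10 tested genes were higher and 4 lower. PLCB1, a phospholipase C, had 632 and 439 counts in LGR5-high and 18 and 37 in LGR5-negative (log2 fold change 4.08 ± 0.348, adjusted p = 0.000505 by edgeR). The IP3 receptors ITPR1 (1.59) and ITPR3 (0.66) were higher, and ITPR2 was lower (-0.80). PLCB2, a phospholipase of blood cells, fell by 3.60 and PRKCB by 2.45 on the log2 scale. The call of PRKCB was lost without LGR5-high of 95R or LGR5-negative of 95R. Immune cell markers moved with PLCB2, PRKCB and GNA15, a subunit of blood cells, with 4 of 5 tested lower. Their summed level was 7.26 to 9.39 CPM in LGR5-high against 90.0 to 133 in LGR5-negative. Most of that sum was CD74, at 7.27 and 5.69 CPM against 81.8 and 117 (88R and 95R). GNA15 differed less, at 29.7 CPM in LGR5-high and 47.5 in LGR5-negative. The part of immune cells in these results was not tested.

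Receptor desensitization genes were divided as well, with 3 higher and 2 lower of 7. The arrestin ARRB1 fell by 1.82 on the log2 scale (60.0 ± 7.56 CPM against 212 ± 46.1, edgeR adjusted p = 0.000730) and ARRB2 was higher by 0.52. The receptor kinase GRK5 was at 30.0 ± 1.96 CPM in LGR5-high and 85.2 ± 2.79 in LGR5-negative (-1.50 ± 0.0940, adjusted p = 0.000193 by edgeR). GRK3, a kinase that binds free beta-gamma subunits, was higher (1.73 ± 0.530, edgeR adjusted p = 0.0430), with counts of 335 and 223 against 33 and 115, and GRK4 was higher by 0.67. GRK3 and ARRB2 lost their calls when either LGR5-high library was left out, and GRK4 with limma-voom and without LGR5-high of 95R or either LGR5-negative library. Among 13 RGS proteins, which end G protein signals, 2 were higher (RGS5 1.69, RGS3 1.38) and 3 lower (RGS1 -4.40, RGS16 -2.95, RGS12 -1.08). RGS1 is best known from lymphocytes, and the immune markers given above moved with it. The T lymphocyte marker CD3E, however, had 0 counts in LGR5-high and 1 and 2 in LGR5-negative (88R and 95R). RGS1 had 357 and 817 counts in LGR5-negative. The part of immune cells in the RGS1 difference was not tested. The call of RGS16 was lost with limma-voom and without either LGR5-high library, and that of RGS5 without LGR5-high of 88R or LGR5-negative of 95R. With the block, 3 RGS genes were higher and 7 lower.

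**Figure D3:**
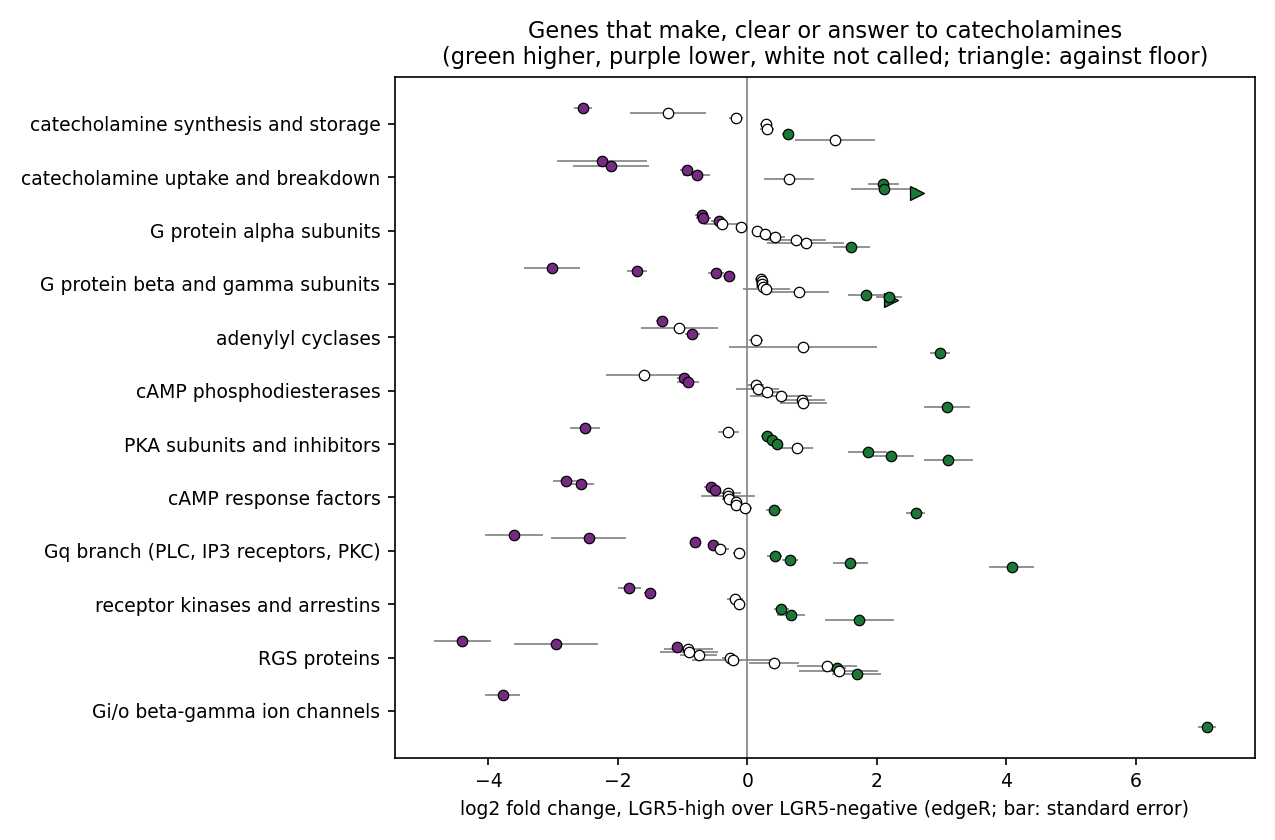
Log2 fold change of each tested pathway gene, LGR5-high over LGR5-negative, with bars for the standard error, in 12 lists by role (green called higher, purple called lower, white not called). Triangles mark SLC22A2 and GNG4, drawn at their value against the 3-count limit because their LGR5-negative libraries held 0 or 1 counts. PKA subunits lie mostly to the right.

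Other receptors for amine transmitters gave a comparison for the adrenoceptors. Of 27 listed genes, 21 exceeded 3 counts in at least 1 library. Of these, 14 were tested, 5 higher and 3 lower, so that 57.1% were called, beside 44.7% of all tested genes. CHRM2, a Gi-coupled muscarinic receptor, had 1190 and 441 counts in LGR5-high and 9 and 6 in LGR5-negative (log2 fold change 6.53 ± 0.649, adjusted p = 0.000847 by edgeR). The Gi-coupled serotonin receptors HTR1B (3.21) and HTR1D (3.15) were higher as well, HTR1D with 1871 and 1438 counts against 152 and 173. DRD2, a Gi-coupled dopamine receptor, had 90 and 15 counts against 1 and 2, a ratio of 30.5 with a counting interval of 10.1 to 150, and its call was lost with limma-voom and without LGR5-high of 88R or LGR5-negative of 88R. HTR4, which couples to Gs, was higher (2.15). HTR1D and HTR4 were named after their values were seen. The lower genes were the Gs-coupled HRH2 (-4.14 ± 0.227, adjusted p = 0.000138 by edgeR), the Gq-coupled HTR2A (-3.01 ± 0.326, 0.00115) and the Gs-coupled HTR6 (-1.62), whose call was lost without LGR5-high of 88R or LGR5-negative of 95R. HRH2 had 22 and 27 counts in LGR5-high and 347 and 409 in LGR5-negative. Of the 5 higher genes 4 are known to couple to Gi and of the 3 lower ones 0, a grouping made after their values were seen and not tested. The remaining tested receptor known to couple to Gi, CHRM4, was not called (0.82 ± 0.639, adjusted p = 0.339 by edgeR). With the block 5 were higher and 5 lower.

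**Figure D4:**
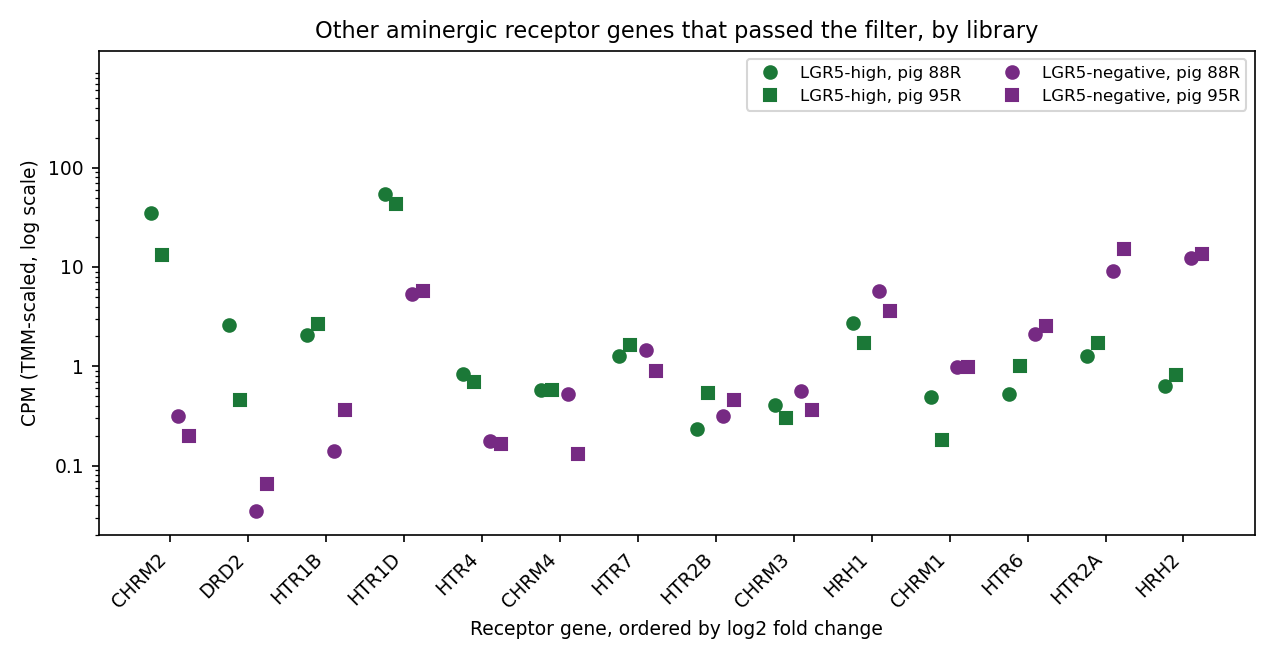
CPM of the 14 tested aminergic receptor genes outside the adrenoceptors, by library on a log scale, ordered by log2 fold change. CHRM2 lies highest in LGR5-high relative to LGR5-negative and HRH2 lowest.

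Markers of other cell types were given beside the receptors because a sorted population can hold more than 1 type. For comparison, 22.7% of all tested genes were higher and 22% lower. Of 7 outer root sheath and bulge markers 5 were higher, among them TBX1 (6.49 ± 0.137) and LHX2 (6.35 ± 0.175), and 7 of 7 suprabasal keratinocyte markers were lower, with KRT10 and KRT1 at -3.43 and -3.56. Smooth muscle and pericyte markers, relevant to ADRA1B and ADRA2C, were higher in 5 of 7, and their summed level was 294 to 407 CPM in LGR5-high against 16.5 to 17.6 in LGR5-negative. Most of that sum was TAGLN, with 13386 and 9164 counts against 325 and 302. The contractile genes CNN1 (3.70), ACTA2 (2.08) and MYH11 (0.91) were higher too, ACTA2 with 134 and 142 counts against 22 and 35, as was RGS5. ACTG2 and LMOD1 (-1.05) were not called, and with the block LMOD1 was lower (edgeR adjusted p = 0.0463). DES and the smooth muscle coactivator MYOCD had at most 5 counts in any library. Nerve and Schwann cell markers, relevant to ADRA2A, were higher in 3 of 5 and lower in 1, with NGFR at 4.74 ± 0.178, S100B at 2.81 and UCHL1 at 1.48. The lower one was ERBB3, at 185 ± 22.8 CPM against 324 (-0.81). It made up most of the list's summed level, 250 to 265 CPM in LGR5-high and 325 to 335 in LGR5-negative. SNAP25 had 17 and 7 counts against 1 and 0, and CDH19 had 0 counts in every library. Endothelial markers were lower in 5 of 6, with 6.43 to 7.59 CPM against 21.5 to 22.0. The part of smooth muscle and nerve cells in the receptor levels was not tested.

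**Figure D5:**
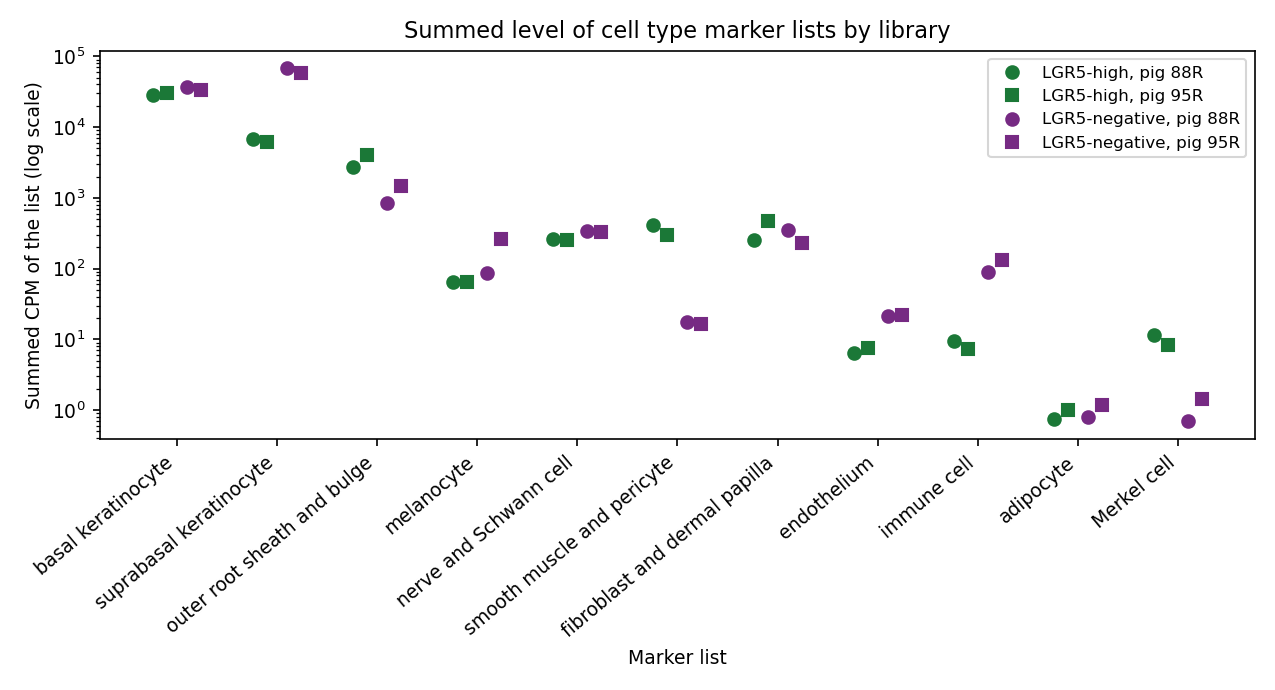
Summed CPM of each cell type marker list by library on a log scale. Smooth muscle and pericyte markers sum to 294 and 407 CPM in LGR5-high, and suprabasal keratinocyte markers are lower there, at 6100 and 6690 CPM against 58534 and 67583.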

How the data were processed

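RNA of sorted cells from 2 pigs was sequenced. Per the labels and the submitters' processing notes, the authors used Trimmomatic 0.36, STAR 2.5.2b and featureCounts of Subread 1.5.2, and deposited raw counts per gene in 1 table. The genome build, annotation and strand setting are not given in the sources used here. A row without a gene name held 0.360 to 0.626% of the counts and was left out.

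Library sizes were scaled by TMM, genes with low counts were removed with filterByExpr (minimum count 10, minimum total 15), and the populations were compared with the quasi-likelihood test of edgeR 4.0.16 in R 4.3.3, with Benjamini-Hochberg adjustment over 15980 genes and calls at adjusted p under 0.05. Of these genes 3632 were higher and 3508 lower. The model had no block. Both libraries of a pig come from the same animal, and their deviations from the population means correlated at 0.370, so the pig was also fitted as a replicate block, whose values are given where it changed the call of a named gene or moved a list's count by over 1.5 times. All p-values rest on 2 animals. On simulated counts (15880 genes) edgeR recovered 85.4% of 185 changed genes with 4 false calls. Far fewer genes were changed there than were called in these data. The relative variation between replicates was set equal for all genes, and no effect of pig was simulated. The simulation therefore does not give the error rates in these data.

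The members and lists were chosen with earlier results of these data known. Folds against a population without counts use a limit of 3 counts per library. Named pathway genes are the up to 3 with the greatest fold change in each direction per list, with more where a count needed them. Symbols and gene order came from RefSeq, without coordinates or sequences, which were not used here. KRT14, FLG, KRT17, TUBB3 and CD1A were not analysed here, and some listed genes that were counted are not reported here by name. Alternatives changed the scaling, filter, test, block, prior count and libraries (DESeq2 1.42.0, limma 3.58.1).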

Additional observations from a re-analysis of the deposited data

How the results depend on the processing

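ADRA2A kept its direction under every alternative run. Its log2 fold change of 7.88 was 8.11 with library size in place of TMM, and 7.77 to 7.99 with 1 library left out. The genes higher in LGR5-high numbered 5473 and the lower ones 2328 with library size only, and 544 and 502 with a per-gene Student t-test, which the study's methods name, run here on log2 CPM with a pseudocount of 1 chosen for this comparison. The t-test recovered no changed gene in the simulated data, where few genes were changed, so that result does not measure its performance here. Leaving out 1 library gave 2279 to 3169 higher and 2139 to 3004 lower. The lone library of a population was then assumed to vary like the other population. Of the pathway genes, the t-test called 3 higher and 5 lower, and leaving out 1 library gave 19 to 26 higher and 22 to 30 lower. With the replicate block, 4562 genes were higher and 4342 lower, and 37 and 38 of the pathway genes, and no call of the 57 named genes was lost. The block also gave 7 PKA genes and 6 outer root sheath markers higher, and 5 cAMP response factors, 5 Gq branch genes and 6 endothelial markers lower. Without LGR5-high of 95R 14 of the 57 calls were lost, without LGR5-high of 88R 12, and without either LGR5-negative library 6. The t-test lost 49. No named gene changed direction. Of the 5 genes nearest to ADRA2A, 1 remained with uncentred levels and 3 with a prior count of 0.5. The limit of 3 counts, 0.0872 to 0.105 CPM, bears on ADRA1A, ADRA1D, ADRA2B, ADRB1 and ADRB3, for which no order of the populations was resolved.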

Other observations

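Melanocyte markers were lower in LGR5-high in 5 of 8 tested, led by TYRP1 (-4.54 ± 0.815, adjusted p = 0.00705 by edgeR). With the pig as a block 1 was higher and 6 lower. Their summed level in LGR5-negative differed between the pigs, at 86.7 CPM in 88R and 263 in 95R, beside 64.5 and 64.1 in LGR5-high. Fibroblast and dermal papilla markers were divided, with 2 of 8 higher and 4 lower. COL1A1 had 4885 and 10950 counts in LGR5-high and 2679 and 1126 in LGR5-negative, while LUM had 5 and 0 against 47 and 31. The Merkel cell list had 1 tested gene, PIEZO2, a mechanosensitive channel, which was higher (4.08 ± 0.451, adjusted p = 0.00122 by edgeR). The other genes of that list did not pass the filter. KRT20 had 10 and 8 counts in LGR5-high and 8 and 12 in LGR5-negative, and ISL1 had 0 and 7 against 3 and 7. ATOH1 had 3 and 21 against 0 and 2. Of the basal keratinocyte markers 3 of 5 were lower, by 0.38 to 0.94 on the log2 scale (ITGB4, COL17A1, ITGA6). The 1 tested adipocyte marker, FABP4, was not called.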
